A study of Homo sapiens with 4 samples.

Results

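The H/ACA small nucleolar RNAs and the small Cajal body RNAs were followed across 4 arrays of MCF10A, a non-tumorigenic human breast epithelial cell line. Members were the genes with a probe set annotated to exactly 1 symbol that starts with SNORA or SCARNA plus a number, and the probe set with the highest mean stood for a gene that had several. There were 81 members, 61 SNORA and 20 SCARNA genes, among 22395 named genes. Of the 81, 48 had a deposited log2 value of 3 or more on some array (35 SNORA and 13 SCARNA) and 33 stayed below it on every array. The cells carried Her2 together with the H1047R variant of PIK3CA, that variant alone, Her2 alone, or LacZ, each as a stable transfection in the same line and grown untreated in SFIHE medium. Her2 (ERBB2) is a receptor tyrosine kinase, PIK3CA is the catalytic subunit of a lipid kinase that acts downstream of such receptors, and LacZ is a bacterial enzyme gene that served as the control. The series asks which genes are controlled by either introduced gene or by the pair. The sources used here give neither the promoter of the introduced genes nor whether a transfected population was 1 clone. Each group was 1 array, so no difference below has a replicate check, a standard deviation or a test. Differences are of deposited log2 values, where 1 is 2-fold.

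H/ACA RNAs are short RNAs of paired hairpins that end with the box ACA. Each binds the pseudouridine synthase dyskerin with GAR1, NHP2 and NOP10, and base-pairs with a target RNA to choose the uridine that becomes pseudouridine. SNORA RNAs work in the nucleolus, mostly on ribosomal RNA, and the SCARNA class works in Cajal bodies on the small nuclear RNAs of the spliceosome. Most human members are cut out of introns of host genes, many of which encode ribosomal or other translation proteins. A few SCARNA genes carry box C/D sequences, which guide methylation, alone (SCARNA2, SCARNA7, SCARNA17 and SCARNA9L) or joined to H/ACA hairpins (SCARNA5, SCARNA6 and SCARNA10). The genes were short in RefSeq (GRCh38.p14), with a median of 134 bases for SNORA members and 137.5 bases for SCARNA members. The labels describe total RNA, column purification and a whole-transcript labelling kit, so a probe set inside an intron can read the mature small RNA, its precursor and the host's unspliced RNA, and these cannot be told apart here.

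The introduced gene did not follow the labels, and values are therefore given under the label of each array. The probe set for ERBB2, which also covers the microRNA gene MIR4728, read 7.39 under both genes, 8.48 under mutant PIK3CA, 4.29 under Her2 and 5.96 under LacZ, so Her2 minus LacZ was -1.67. If the Her2 and the mutant PIK3CA array had each other's label, every result given under Her2 and under mutant PIK3CA would change places, and so would the pairs of arrays. Whether they have was not tested. Array medians over all probe sets lay between 1.13 and 1.17. Of 7 measured markers of mammary basal epithelium, 7 reached log2 3 under both genes and 6 under each other label, and their summed log2 values were 44.8 under both genes, 56.2 under mutant PIK3CA, 50.6 under Her2 and 52.7 under LacZ. Against LacZ, 1 of the 7 was 2-fold or more higher and 4 were lower under both genes, beside 14.1% and 9.60% of all named genes that reached log2 3. The higher one was KRT14, a keratin, at 3.43 under both genes, 2.24 under mutant PIK3CA, 1.80 under Her2 and 1.47 under LacZ. CDH1 (E-cadherin) read 5.07 under both genes, 9.13 under mutant PIK3CA, 8.94 under Her2 and 9.34 under LacZ, and EPCAM, an epithelial adhesion protein, read 5.71, 7.78, 7.01 and 7.94 in that order, while KRT5, a basal keratin, read between 7.08 and 7.52 on the 4 arrays. Of 7 fibroblast markers, 4 reached log2 3 under both genes and 2 under each other label, with summed values of 27.5, 14.0, 19.3 and 13.2 in the same order. Among them LUM, a matrix proteoglycan, read 6.26 under both genes and at most 0.78 elsewhere, and DPT (dermatopontin) read 7.86 under both genes, 3.69 under mutant PIK3CA, 8.38 under Her2 and 3.41 under LacZ. FAP, a fibroblast surface protease, read 4.86 under both genes, 4.71 under mutant PIK3CA, 5.92 under Her2 and 4.34 under LacZ, so DPT and FAP were highest on the array labelled Her2, and COL1A1 and PDGFRB stayed below log2 3 on every array. Of the blood markers, CD68, a lysosomal protein of macrophages, read 6.78 under both genes, 6.24 under mutant PIK3CA, 4.94 under Her2 and 4.68 under LacZ, while PTPRC and CD3E stayed below log2 3, as did the endothelial markers CDH5 and VWF. The part of these cell-type markers in the differences below was not tested.

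The box that defines the class can be seen in some of the RefSeq microRNA hairpins that overlap these RNAs. SCARNA3 is a member, and SNORA84 was read by a probe set shared with its overlapping microRNA. Both hairpins lie on the minus strand, at chr1:175968370-175968479 for SCARNA3 (MIR1843) and chr9:92292458-92292547 for SNORA84 (MIR3651) in GRCh38.p14. They are printed to show the box ACA, in capitals, which sits 3 bases before the 3′ end of each small RNA. Each printed line is the hairpin and runs past that end. Of its bases, 83 of 110 overlap SCARNA3 and 87 of 90 overlap SNORA84.
SCARNA3: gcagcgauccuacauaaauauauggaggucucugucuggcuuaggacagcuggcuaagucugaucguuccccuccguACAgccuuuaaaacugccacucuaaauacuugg
SNORA84: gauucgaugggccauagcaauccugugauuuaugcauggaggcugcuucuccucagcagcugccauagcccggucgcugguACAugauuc
SCARNA3 read 2.13 under both genes, 1.97 under mutant PIK3CA, 0.89 under Her2 and 0.61 under LacZ. It stayed below log2 3 everywhere, with the arrays that carry the PIK3CA label above the other two. The probe set of SNORA84 and MIR3651 read 4.91 under both genes, 5.36 under mutant PIK3CA, 4.43 under Her2 and 5.49 under LacZ. Its lowest value was that of the array labelled Her2.

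Not every member was read on every array. Of the 48 members that reached log2 3, 29 did so on all 4 arrays and 6 on a single array. SNORA68, which guides modification of large-subunit ribosomal RNA, read 8.51 under both genes, 8.92 under mutant PIK3CA, 7.06 under Her2 and 8.13 under LacZ. SNORA24, a guide for small-subunit ribosomal RNA, read 7.09 under both genes, 6.90 under mutant PIK3CA, 6.41 under Her2 and 7.15 under LacZ. Both were far above log2 3 on every array, with the array labelled Her2 the lowest. Just inside the level of 3 were SNORA15 (highest value 3.05), SCARNA8 (3.13) and SNORA14B (3.20). Just outside were SNORA70G (2.93), SNORA74A (2.82) and SNORA5C (2.73). The 33 members below the level had medians between 1.13 and 1.47 on the 4 arrays, near the array medians over all probe sets, and counts are also given for all 81 members and for the 39 whose mean over the arrays was at least 3.

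**Figure D1:**
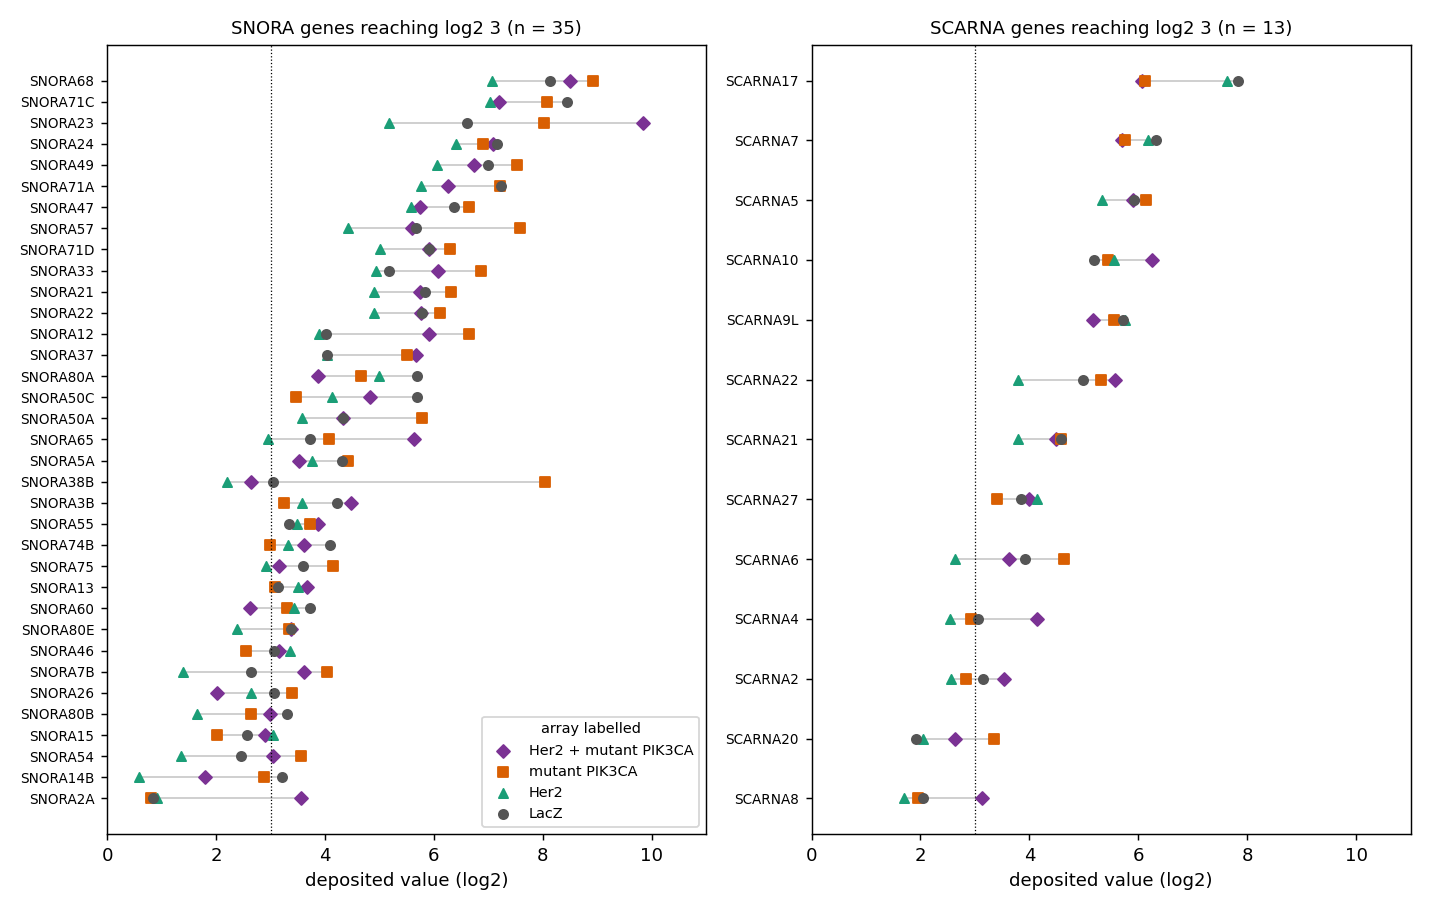
Deposited log2 values (x axis) of the 35 SNORA and 13 SCARNA genes that reached log2 3 (dotted line), 1 row per gene ordered by mean; symbols mark the 4 arrays by label and grey lines join the lowest and highest array. The green triangle of the array labelled Her2 is the leftmost symbol for 29 of the 48 genes, and SNORA38B and SNORA23 span the widest ranges in the left panel.

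The array labelled Her2 gave the most one-sided picture. Among the 48 members that reached log2 3, 0 were higher and 12 lower than on the LacZ array by 2-fold or more, 38 lay below 0, and the median difference was -0.71. Over all named genes that reached log2 3, 3.74% were higher, 3.23% were lower and the median was 0.01. Without a filter, 2 of 81 members were higher and 12 lower, with 56 below 0 and a median of -0.29, beside 1.92% higher and 1.75% lower of all named genes. Among the 39 members with a mean of at least 3, a rule that weighs all arrays, 0 were higher, 8 were lower and the median was -0.74, against 3.05% higher and 2.67% lower of all genes under that rule. The array labelled Her2 held the lowest of the 4 values for 29 of the 48 members (60.4%), against 19.3% of all named genes that reached log2 3, and for 24 of the 39, against 18.6%.

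SNORA14B, a guide for small-subunit ribosomal RNA hosted by TOMM20, was the lowest relative to LacZ. Its values were 0.59 under Her2 and 3.20 under LacZ, with 1.79 under both genes and 2.89 under mutant PIK3CA, so it was at background under Her2 and the difference was -2.61. SNORA80B read 1.64 under Her2 and 3.30 under LacZ, with 2.98 under both genes and 2.65 under mutant PIK3CA. SNORA14B and SNORA80B passed log2 3 on the LacZ array alone, so the filter favoured lower values elsewhere for them. SNORA50C read 4.12 under Her2 and 5.70 under LacZ, with 4.83 under both genes and 3.46 under mutant PIK3CA, where it was lowest. SNORA71A, a guide for small-subunit ribosomal RNA, read 5.75 under Her2 and 7.23 under LacZ, with 6.25 under both genes and 7.21 under mutant PIK3CA. For SNORA71A the LacZ and mutant PIK3CA arrays were high and nearly equal, and the arrays with a Her2 label were low. SNORA23 read 5.18 under Her2 and 6.61 under LacZ, a difference of -1.44. At the other end no member that reached log2 3 was 2-fold or more above LacZ. SNORA15 read 3.05 under Her2 and 2.57 under LacZ, with 2.91 under both genes and 2.02 under mutant PIK3CA. SCARNA10 was next with a difference of 0.37, then SNORA13, SNORA46 and SCARNA27. SNORA13, which guides a hypermodified uridine of small-subunit ribosomal RNA, read 3.50 under Her2 and 3.13 under LacZ, with 3.66 under both genes and 3.09 under mutant PIK3CA. SNORA46 read 3.36 under Her2 and 3.06 under LacZ, with 3.16 under both genes and 2.54 under mutant PIK3CA. SNORA15 had the largest of these 5 differences, at 0.48, but it passed log2 3 on the array labelled Her2 alone, so the filter favoured it. Another probe set of SNORA15 was at background, at 0.22 under Her2 and 0.31 under LacZ.

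Box C/D RNAs, the other main class of small nucleolar RNAs, were low on the array labelled Her2 too. Of 46 SNORD genes that reached log2 3, 0 were 2-fold or more higher and 6 lower than on the LacZ array, 35 lay below 0, and the median was -0.48. The array labelled Her2 was lowest for 28 of the 46. Arrays were also centred on the detected SNORD genes in 2 ways, which adds 1 constant to every gene of an array. Centred on the median deviation of these genes from their own means, the 48 members had a median of -0.12 under Her2 against LacZ, with 3 higher and 3 lower by 2-fold or more. Centred on their median level, the median was -0.43, with 2 higher and 7 lower. Set against box C/D RNAs, the members' difference under Her2 was thus smaller than against all genes, to a degree that depends on the centring. Fewer cells of a type and less of these RNAs per cell cannot be told apart in such samples.

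**Figure D2:**
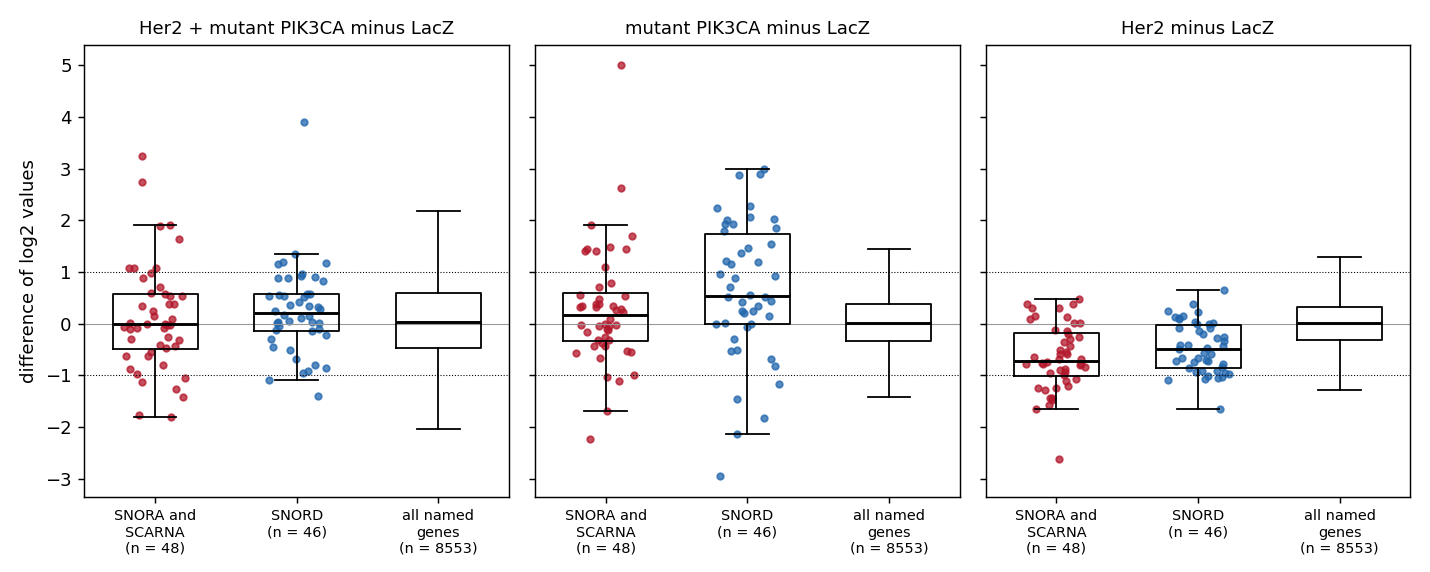
Differences of log2 values (y axis) between each array and the LacZ array for 48 SNORA and SCARNA genes, 46 SNORD genes and all 8553 named genes that reached log2 3; points are genes, spread sideways at random, boxes span the quartiles, and whiskers reach the last gene within 1.5 box lengths. Under Her2 the small RNA boxes lie below 0 (medians -0.71 and -0.48), and under mutant PIK3CA the SNORD median lies above it (0.53) while that of SNORA and SCARNA genes is 0.16 and turns to -0.62 when arrays are centred on the median deviation of detected SNORD genes.

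Under mutant PIK3CA the members divided into a group that was high and a majority near the LacZ array. Of the 48 that reached log2 3, 10 were higher and 4 lower than on the LacZ array by 2-fold or more, with a median of 0.16. The shares over all named genes that reached log2 3 were 5.89% and 4.19%, with a median of 0.02. Among all 81 members 12 were higher and 4 lower (median 0.02), beside 2.71% and 1.91% of all named genes, and among the 39 with a mean of at least 3 the counts were 7 and 4, beside 5.52% and 3.81%. Of the 10, SNORA7B and SNORA54 passed log2 3 only on arrays with the PIK3CA label, and SCARNA20 on the array labelled mutant PIK3CA alone. The filter thus favoured their higher values. The array labelled mutant PIK3CA held the highest value for 20 of the 48, against 23.1% of the named genes that reached log2 3. The direction turned when arrays were centred on detected SNORD genes, with 4 higher, 13 lower and a median of -0.62 on their median deviation, and 2 higher, 25 lower and -1.002 on their median level. Of 46 SNORD genes, 18 were 2-fold or more higher and 5 lower under mutant PIK3CA against LacZ, with a median of 0.53.

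SNORA38B gave the widest difference of any member. It read 8.04 under mutant PIK3CA and 3.05 under LacZ, with 2.64 under both genes and 2.21 under Her2, a difference of 5.00. This RNA, hosted by NOL11, a protein of ribosomal RNA synthesis, was thus high on a single array, and on the array that carries the same label with Her2 it lay below LacZ. SNORA12 read 6.64 under mutant PIK3CA and 4.02 under LacZ, with 5.91 under both genes and 3.89 under Her2. SNORA57 read 7.57 under mutant PIK3CA and 5.67 under LacZ, with 5.59 under both genes and 4.43 under Her2. SNORA33, which guides modification of large-subunit ribosomal RNA from an intron of the ribosomal protein gene RPS12, read 6.87 under mutant PIK3CA and 5.18 under LacZ, with 6.07 under both genes and 4.94 under Her2. SNORA12 and SNORA33 were above LacZ on both arrays with the PIK3CA label, although SNORA33 fell short of 2-fold under both genes. A brighter probe set shared by SNORD100 and SNORA33 read 8.76 under mutant PIK3CA and 6.66 under LacZ, with 6.57 under both genes and 5.64 under Her2. In that probe set, and for SNORA57, only the array labelled mutant PIK3CA was above LacZ. SNORA37, also a large-subunit guide, read 5.51 under mutant PIK3CA and 4.03 under LacZ, with 5.67 under both genes and 4.04 under Her2.

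The lowest members under mutant PIK3CA were SNORA50C (3.46, against 5.70 under LacZ), SCARNA17, SNORA74B, SNORA80A and SNORA3B. SNORA74B, a member of the U19 family, read 2.99 under mutant PIK3CA and 4.10 under LacZ, with 3.62 under both genes and 3.32 under Her2. SNORA3B, hosted by the ribosomal protein gene RPL27A, read 3.24 under mutant PIK3CA and 4.22 under LacZ, with 4.48 under both genes and 3.58 under Her2, a difference of -0.98 that fell short of 2-fold. In both RNAs the array labelled mutant PIK3CA was the lowest of the 4.

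With both genes the members spread in either direction around the LacZ array. Of the 48 that reached log2 3, 8 were 2-fold or more higher and 6 lower, with a median of -0.01. Over all named genes that reached log2 3 the shares were 14.1% and 9.60%, with a median of 0.04. All 81 members gave 9 and 6, beside 6.30% and 4.27% of all named genes, and the 39 with a mean of at least 3 gave 6 and 4, beside 11.7% and 9.70%. As shares of members these are 16.7% and 12.5% of the 48, 11.1% and 7.41% of the 81, and 15.4% and 10.3% of the 39. The 48 and the 39 lay close to the background. The 81 lay above theirs, but 48 of the 81 reached log2 3, against 8553 of 22395 named genes. The unfiltered background thus holds a larger share of genes below that level, and the 2 are not alike. The 48 gave 6 higher and 7 lower after quantile normalization, and 5 higher with 8 or 9 lower when centred on the median deviation or the median level of detected SNORD genes. The 8 higher members were SNORA23, SNORA2A, SNORA65 and SNORA37, which guide modification of large-subunit ribosomal RNA, SNORA12, and the Cajal body RNAs SCARNA4, SCARNA10 and SCARNA8.

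SNORA23, hosted by the nuclear import receptor gene IPO7, was the highest. It read 9.85 under both genes, 8.02 under mutant PIK3CA, 5.18 under Her2 and 6.61 under LacZ, and the difference from LacZ was 3.23. The arrays with a PIK3CA label were the high ones, and the array labelled Her2 was the lowest. SNORA2A, hosted by KANSL2, read 3.56 under both genes, 0.80 under mutant PIK3CA, 0.92 under Her2 and 0.83 under LacZ. It passed log2 3 on a single array and was at background on the others, so its difference of 2.73 rests on 1 reading against background. SNORA65, hosted by the ribosomal protein gene RPL12, read 5.64 under both genes, 4.07 under mutant PIK3CA, 2.96 under Her2 and 3.73 under LacZ. SNORA12 and SNORA37, given above, differed from LacZ by 1.89 and 1.64. The next were SNORA7B, at 3.61 under both genes, 4.05 under mutant PIK3CA, 1.39 under Her2 and 2.63 under LacZ, and SNORA33, whose differences of 0.98 and 0.88 were below 2-fold.

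The 6 lower members were SNORA80A, SCARNA17, SNORA14B, SNORA71C, SNORA60 and SNORA26. SNORA80A, hosted by URB1, a protein of ribosome assembly, read 3.88 under both genes, 4.65 under mutant PIK3CA, 5.00 under Her2 and 5.68 under LacZ, with every other label below LacZ. SNORA71C read 7.19 under both genes, 8.08 under mutant PIK3CA, 7.02 under Her2 and 8.45 under LacZ. SNORA60 read 2.61 under both genes, 3.30 under mutant PIK3CA, 3.44 under Her2 and 3.73 under LacZ. For all 3 the LacZ array was the highest. SNORA26, which lies in the noncoding host gene DANCR, read 2.02 under both genes, 3.39 under mutant PIK3CA, 2.64 under Her2 and 3.07 under LacZ. SNORA71A (a difference of -0.98), SNORA50C (-0.87) and SNORA5A (-0.79) came next without reaching 2-fold. SNORA5A, hosted by TBRG4, read 3.52 under both genes, 4.41 under mutant PIK3CA, 3.76 under Her2 and 4.31 under LacZ.

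Each introduced label appears in 2 pairs of arrays that share none, and some members differed the same way in both. For mutant PIK3CA the pairs were mutant PIK3CA against LacZ and both genes against Her2. In these, 7 of the 48 members that reached log2 3 were at least 2-fold higher in both pairs, against 1.98% of the named genes that reached log2 3, and 2 were at least 2-fold lower in both, against 0.982%. Over all 81 members the counts were 8 and 2, against 0.799% and 0.402% of all named genes. The 8 were SNORA23, SNORA57, SNORA33, SNORA12, SNORA37, SNORA7B, SNORA54 and SCARNA3, and the 2 were SCARNA17 and SNORA80A. SNORA54 read 3.04 under both genes and 1.36 under Her2, and 3.56 under mutant PIK3CA and 2.47 under LacZ. SNORA54 and SNORA7B passed log2 3 only on the arrays with the PIK3CA label, so the filter favoured them. Among the 39 members with a mean of at least 3, 5 were higher in both pairs and 2 lower. Of 7445 named genes under that rule, 132 were higher and 72 lower in both. The second pair uses the array labelled Her2, on which most members were low. SNORD genes gave a like count, with 9 of the 46 that reached log2 3 higher in both pairs and 0 lower.

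**Figure D3:**
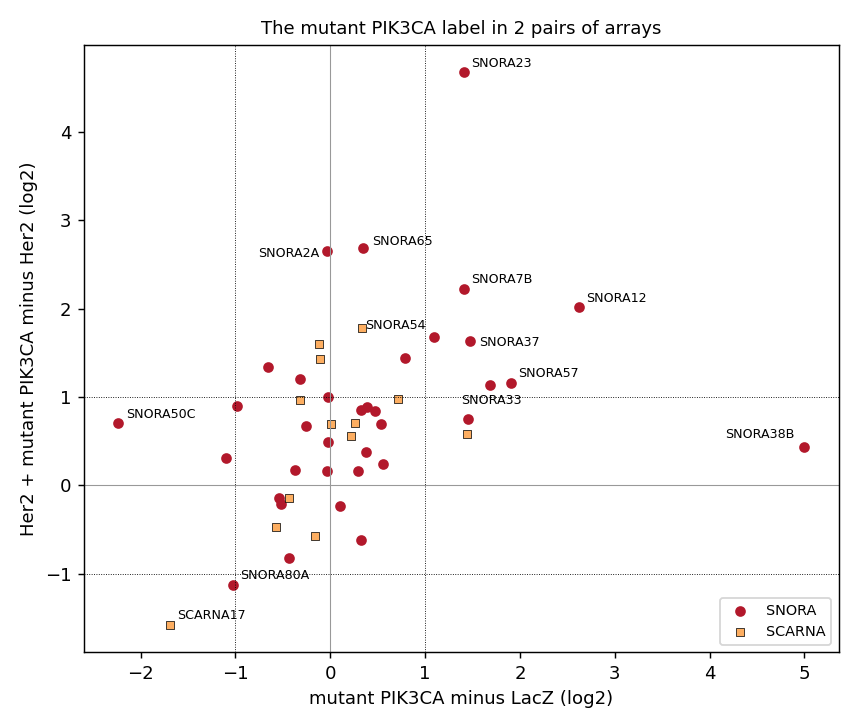
Differences of log2 values of the 48 members that reached log2 3 in the 2 pairs of arrays that differ by the mutant PIK3CA label, without Her2 (x axis) and with Her2 (y axis); dotted lines mark 2-fold. The 7 genes beyond the dotted lines at upper right and the 2 at lower left are named with 4 others, and SNORA38B differs by 5.00 on the x axis and 0.43 on the y axis.

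For Her2 the pairs were Her2 against LacZ and both genes against mutant PIK3CA. SNORA57, SCARNA6 and SNORA14B were at least 2-fold lower in both (3 of 48, against 1.03% of the named genes that reached log2 3) and 0 were higher in both (against 1.46%). SNORA14B passed log2 3 on the LacZ array alone, so the filter favoured its lower values elsewhere. Among the 39 members with a mean of at least 3, 2 were lower in both pairs and 0 higher. Of 7445 named genes under that rule, 70 were lower and 81 higher in both. SNORA57 differed by -1.24 and -1.98 in the 2 pairs. Against the array labelled mutant PIK3CA, the array with both genes had 7 of the 48 members 2-fold or more higher and 6 lower, with a median of -0.29, beside 11.1% and 7.51% of all named genes that reached log2 3, and the median turned to 0.29 (14 higher and 3 lower) when centred on the median deviation of detected SNORD genes and to 0.62 (17 and 2) on their median level. The one-sided picture of the array labelled Her2 was thus not repeated where the label was added to mutant PIK3CA. SNORA23 and SNORA50C went opposite ways in the pairs, each at least 2-fold lower under Her2 against LacZ and at least 2-fold higher under both genes against mutant PIK3CA. Against the array labelled Her2, the array with both genes had 15 of the 48 members higher and 2 lower, with a median of 0.70, beside 9.65% and 5.38%, and the median turned to -0.0744 (6 higher and 10 lower) when centred on the median deviation of detected SNORD genes and was 0.19 (9 and 8) on their median level. This comparison shares the array labelled Her2, on which most members were low.

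The value under both genes can be set against the sum of the single differences. It exceeded that sum by at least 1 log2 unit for 13 of the 48 members and fell short of it by as much for 1, with a median of 0.38 (11 and 3 with a median of 0.23 when centred on the median deviation of detected SNORD genes, and 22 and 1 with 0.89 on their median level). Over all named genes that reached log2 3 the shares were 10.9% above and 7.86% below, with a median of 0.02. All 81 members gave 14 and 3, beside 5.72% and 4.50%. The 39 with a mean of at least 3 gave 9 and 1 with a median of 0.31, beside 8.54% and 7.62% under that rule. The departures were 3.26 for SNORA23, 2.94 for SNORA50C, 2.34 for SNORA65, 1.99 for SNORA80B and 1.88 for SNORA3B. SNORA80B passed log2 3 on the LacZ array alone, which enters this quantity with a plus sign, so the filter favoured its excess. SNORA2A also exceeded the sum, but 3 of its 4 readings were at background and it passed log2 3 through the array with both genes alone, so its departure has no interpretable size. At the other end was SNORA38B at -4.56, because its high value under mutant PIK3CA was absent under both genes. SNORA26 (-0.94), SCARNA20 (-0.87), SNORA57 (-0.75), SNORA50A (-0.70) and SNORA12 (-0.61) followed. SCARNA20 passed log2 3 on the array labelled mutant PIK3CA alone, which enters with a minus sign. A low value under Her2 raises this quantity, so its median is not independent of the Her2 comparison.

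The 13 SCARNA genes that reached log2 3 included few wide differences. Against LacZ, 3 were 2-fold or more higher and 1 lower under both genes (median 0.15). Under mutant PIK3CA 1 was higher and 1 lower (median -0.10), and under Her2 0 were higher and 2 lower (median -0.35). The higher one under mutant PIK3CA, SCARNA20, passed log2 3 on that array alone, so the filter favoured it. The 35 SNORA genes gave 5 and 5 under both genes (median -0.02), 9 and 3 under mutant PIK3CA (median 0.33), and 0 and 10 under Her2 (median -0.78). Of all named genes that reached log2 3, 14.1% were higher and 9.60% lower under both genes, 5.89% and 4.19% under mutant PIK3CA, and 3.74% and 3.23% under Her2, so the 5 and 5 SNORA genes under both genes are near these shares. Both classes had medians below 0 under Her2, and a difference between the classes was not tested.

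SCARNA10, which carries both kinds of box and guides modification of the U5 small nuclear RNA, read 6.26 under both genes, 5.44 under mutant PIK3CA, 5.55 under Her2 and 5.18 under LacZ. SCARNA4, which lies in KHDC4, read 4.13 under both genes, 2.93 under mutant PIK3CA, 2.54 under Her2 and 3.05 under LacZ. SCARNA8 read 3.13 under both genes, 1.95 under mutant PIK3CA, 1.70 under Her2 and 2.05 under LacZ. Each of these 3 was highest under both genes, and SCARNA8 passed log2 3 on that array alone. SCARNA22, hosted by the histone methyltransferase gene NSD2, read 5.57 under both genes, 5.32 under mutant PIK3CA, 3.79 under Her2 and 4.99 under LacZ. SCARNA6 read 3.62 under both genes, 4.64 under mutant PIK3CA, 2.64 under Her2 and 3.92 under LacZ. SCARNA5, which lies with SCARNA6 in the autophagy gene ATG16L1, read 5.91 under both genes, 6.14 under mutant PIK3CA, 5.34 under Her2 and 5.92 under LacZ. In this neighbouring pair the order of the arrays was the same, with both genes and LacZ nearly equal for SCARNA5. SCARNA21 read 4.49 under both genes, 4.59 under mutant PIK3CA, 3.79 under Her2 and 4.58 under LacZ, so that only the array labelled Her2 stood apart. SCARNA20 read 2.63 under both genes, 3.36 under mutant PIK3CA, 2.05 under Her2 and 1.91 under LacZ. SCARNA27 read 3.99 under both genes, 3.41 under mutant PIK3CA, 4.14 under Her2 and 3.84 under LacZ, within 2-fold on every pair of arrays.

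The methylation guides with box C/D sequences alone did not share the low values under Her2 except for SCARNA2. SCARNA17 read 6.06 under both genes, 6.13 under mutant PIK3CA, 7.63 under Her2 and 7.82 under LacZ, so the arrays with the PIK3CA label lay together below the others. SCARNA7, hosted by the import adaptor gene KPNA4, read 5.70 under both genes, 5.75 under mutant PIK3CA, 6.17 under Her2 and 6.32 under LacZ. It had the order of SCARNA17 with a smaller range. SCARNA9L read 5.18 under both genes, 5.56 under mutant PIK3CA, 5.75 under Her2 and 5.73 under LacZ, and its probes may also read its paralogue SCARNA9. A brighter probe set shared by SCARNA9 and SCARNA9L read 8.04, 6.10, 7.51 and 7.45 in that order. The array with both genes was thus the lowest in the SCARNA9L probe set and the highest in the shared one. SCARNA2, a guide for the U2 small nuclear RNA, read 3.53 under both genes, 2.83 under mutant PIK3CA, 2.57 under Her2 and 3.15 under LacZ.

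Paralogues with nearly the same sequence can share probes, so their separate values are uncertain. SNORA71A, SNORA71C and SNORA71D, which lie in the noncoding host gene SNHG17, differed from LacZ under both genes by -0.98, -1.26 and 0.00, under mutant PIK3CA by -0.02, -0.37 and 0.39, and under Her2 by -1.47, -1.43 and -0.89. SNORA71D read 5.91 under both genes, 6.29 under mutant PIK3CA, 5.02 under Her2 and 5.90 under LacZ. All 3 were lowest under Her2. SNORA80A, SNORA80B and SNORA80E, from different hosts, did not share an order. SNORA80E read 3.38 under both genes, 3.35 under mutant PIK3CA, 2.38 under Her2 and 3.37 under LacZ, with 3 nearly equal arrays and a low one. SNORA50A, a guide for small-subunit ribosomal RNA hosted by CNOT1, read 4.33 under both genes, 5.79 under mutant PIK3CA, 3.58 under Her2 and 4.34 under LacZ, while SNORA50C was lowest where SNORA50A was highest. Where 1 gene had several probe sets they could also disagree. The second probe set of SNORA21, a large-subunit guide, read 3.19 under both genes, 3.35 under mutant PIK3CA, 3.94 under Her2 and 3.76 under LacZ, and the one used here read 5.74, 6.31, 4.91 and 5.83 in that order. The array labelled Her2 was thus the highest in the dimmer probe set and the lowest in the brighter one.

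Members were set beside their host genes, since an intronic small RNA and its host come from 1 transcript. Of the 48 members that reached log2 3, 37 had a host with a value of its own, and these were 32 hosts. The start of the host transcript is of interest because genes of translation often begin with a C followed by an unbroken run of pyrimidines. Around the first listed RefSeq start, 35 bases before it and 15 from it are printed for some chosen hosts, with the run that begins at the start in capitals. The printed hosts are examples and not a measure of how common the run is. CWF19L1 (SNORA12) and SNHG17 (SNORA71C) were also read, have no such run and are not printed. NCAPD2 has the run, although SCARNA10 spanned only 1.08 log2 units over the arrays. The spans in GRCh38.p14 are chr11:9384617-9384666 (plus strand) for IPO7, chr6:132814534-132814583 (plus) for RPS12, chr9:127451392-127451441 (minus) for RPL12, chr11:62665277-62665326 (plus) for CSKMT, chr12:6494067-6494116 (plus) for NCAPD2 and chr17:67717901-67717950 (plus) for NOL11, which has no such run.
IPO7 (SNORA23): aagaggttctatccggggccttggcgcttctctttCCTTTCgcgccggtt
RPS12 (SNORA33): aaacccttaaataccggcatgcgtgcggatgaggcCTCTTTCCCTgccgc
RPL12 (SNORA65): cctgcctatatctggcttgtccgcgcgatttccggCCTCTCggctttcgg
CSKMT (SNORA57): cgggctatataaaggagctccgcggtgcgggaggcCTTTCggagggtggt
NCAPD2 (SCARNA10): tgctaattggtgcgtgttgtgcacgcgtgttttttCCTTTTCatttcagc
NOL11 (SNORA38B): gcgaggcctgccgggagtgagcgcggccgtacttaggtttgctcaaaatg
A start of C followed by at least 4 more C or T was sought on the transcribed strand. It was present in 8 of 32 host genes with a listed promoter (25.0%) and in 4.04% of 27305 genes. These 32 are not the set of 32 hosts above, since they include RPS12 and RPL27A, which had no value of their own. The 8 members in such hosts, SNORA23, SNORA49, SNORA57, SNORA33, SNORA65, SNORA3B, SNORA14B and SCARNA10, had median differences from LacZ of 0.57 under both genes, 0.44 under mutant PIK3CA and -0.86 under Her2. The 28 members in the other 24 hosts had medians of -0.08, -0.01 and -0.63 in the same order. With 8 members the medians are a description, and both groups were low under Her2.

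Most hosts did not share the wide differences of their small RNAs. IPO7, the host of SNORA23, read 8.61 under both genes, 8.90 under mutant PIK3CA, 8.74 under Her2 and 8.66 under LacZ, nearly flat where SNORA23 spanned 4.67 log2 units. NOL11, the host of SNORA38B, read 7.31 under both genes, 6.91 under mutant PIK3CA, 7.20 under Her2 and 7.28 under LacZ, so the array on which SNORA38B was high was its lowest. MBD2, a methyl-CpG-binding protein gene that hosts SNORA37, read 8.05 under both genes, 8.32 under mutant PIK3CA, 8.01 under Her2 and 7.94 under LacZ. TOMM20, a mitochondrial import receptor gene that hosts SNORA14B, read 5.11 under both genes, 5.99 under mutant PIK3CA, 4.95 under Her2 and 4.90 under LacZ. Under Her2, IPO7 differed from LacZ by 0.07 and TOMM20 by 0.05, beside -1.44 for SNORA23 and -2.61 for SNORA14B. CWF19L1, which hosts SNORA12, read 4.54 under both genes, 4.34 under mutant PIK3CA, 4.57 under Her2 and 4.13 under LacZ. URB1, which hosts SNORA80A, read 4.21 under both genes, 3.60 under mutant PIK3CA, 3.90 under Her2 and 4.44 under LacZ. CSKMT, which hosts SNORA57, read 2.22 under both genes, 2.50 under mutant PIK3CA, 3.17 under Her2 and 3.44 under LacZ, and was therefore lower under mutant PIK3CA while SNORA57 was higher. KANSL2, which hosts SNORA2A, stayed between 3.83 and 4.16. The probe set of RPL12, which hosts SNORA65, read between 2.65 and 2.98, below log2 3 on every array. It therefore cannot show whether this host varied.

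A few hosts did vary with their members under both genes. NCAPD2, a condensin subunit gene that hosts SCARNA10, read 6.26 under both genes, 5.20 under mutant PIK3CA, 4.95 under Her2 and 4.80 under LacZ. HAUS6, an augmin subunit gene that hosts SCARNA8, read 6.30 under both genes, 5.35 under mutant PIK3CA, 5.37 under Her2 and 5.02 under LacZ. NSD2, with SCARNA22, read 4.78 under both genes, 4.09 under mutant PIK3CA, 3.47 under Her2 and 3.85 under LacZ. In each of these 3 the host and the Cajal body RNA were highest under both genes. SNHG17, with the SNORA71 group, read 3.34 under both genes, 3.67 under mutant PIK3CA, 3.47 under Her2 and 4.69 under LacZ, and DANCR, with SNORA26, read 2.62, 2.66, 3.11 and 3.67 in that order. Both noncoding hosts were highest under LacZ, yet SNORA71A was as high under mutant PIK3CA as under LacZ. Across the 37 members, the difference of the member and that of its host under both genes against LacZ had Pearson's r = 0.36 and Spearman's rho = 0.43. Under Her2 against LacZ r was 0.16 and rho 0.12, and under mutant PIK3CA 0.06 and 0.07. Members are not independent replicates, some share a host, and both differences use the same arrays, so these values are a description. The hosts RPL12 and RPL32P3 (host of SNORA7B) stayed below log2 3 on every array, so their differences say little. Over the 19 members whose hosts reached log2 5, r was 0.28 under both genes, -0.14 under Her2 and -0.11 under mutant PIK3CA. Under Her2 the 37 members had a median of -0.77 and their hosts 0.06, with 0 hosts 2-fold or more higher and 3 of the 37 pairs with a host at least 2-fold lower, all of them SNHG17.

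**Figure D4:**
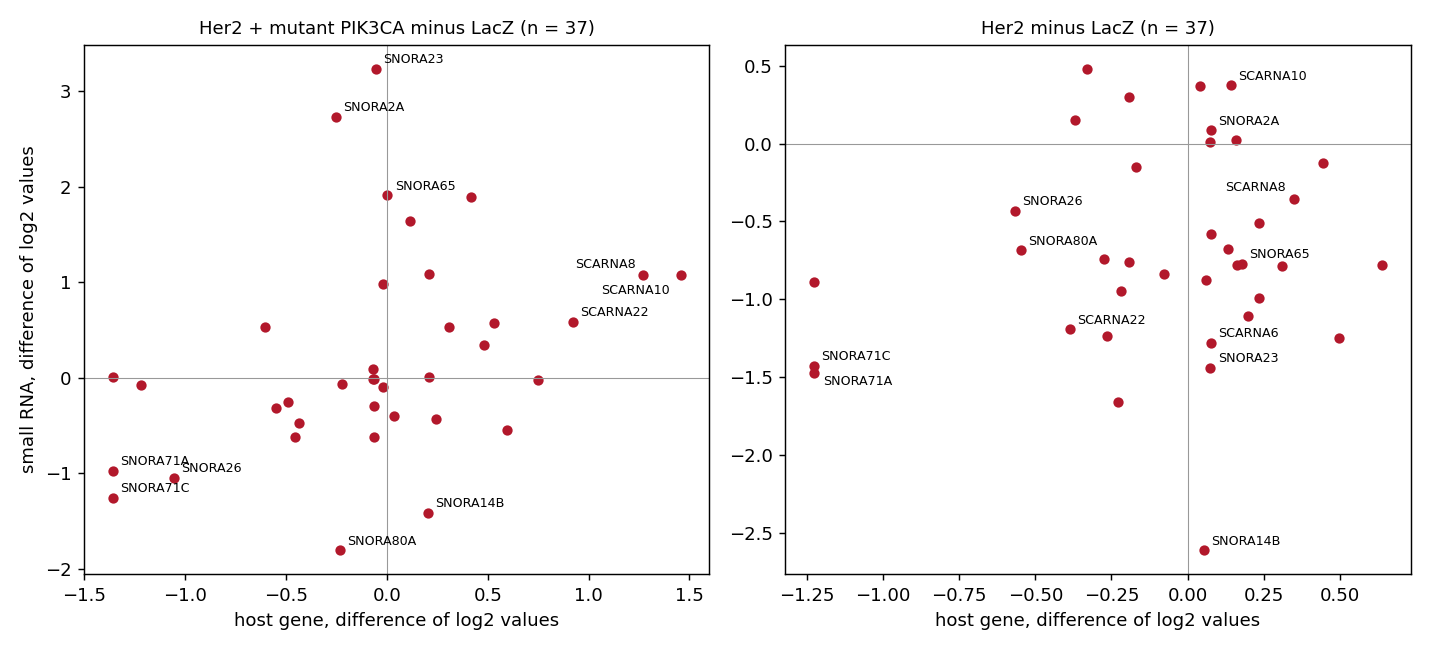
Difference of log2 values from the LacZ array for 37 members that reached log2 3 (y axis) against that of the host gene (x axis), under both genes (left) and under Her2 (right); points are members and a host with several members gives several points. On the left SNORA23 is high (3.23) at a host difference near 0 while SCARNA8, SCARNA10 and SCARNA22 lie to the right with their hosts; on the right most points lie below 0 with hosts on either side of it.

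Genes of the H/ACA particle itself differed little between arrays. Of 10 listed core and assembly genes, 9 were measured, and against LacZ 0 were 2-fold or more higher and 1 lower under both genes (median -0.30), 0 and 1 under mutant PIK3CA (-0.28), and 0 and 0 under Her2 (-0.31). The medians of all named genes that reached log2 3 were between 0.01 and 0.04. Of those genes, 14.1% were higher and 9.60% lower under both genes, 5.89% and 4.19% under mutant PIK3CA, and 3.74% and 3.23% under Her2. With 9 genes the counts are near these shares. The 1 lower gene was PIH1D1, part of a chaperone complex for particle assembly, at 5.16 under both genes, 5.29 under mutant PIK3CA, 6.15 under Her2 and 6.43 under LacZ. The core proteins were within 2-fold on all arrays. NOP10 read 6.29 under both genes, 5.91 under mutant PIK3CA, 5.57 under Her2 and 6.18 under LacZ. NHP2 read 6.30, 6.31, 5.99 and 6.31 in that order, and GAR1 read 3.55, 3.55, 3.89 and 3.67. NOP10 and NHP2 were lowest under Her2, by less than 2-fold, and GAR1 was highest there. NAF1, an assembly factor that GAR1 replaces, read 4.53 under both genes, 5.01 under mutant PIK3CA, 4.74 under Her2 and 4.96 under LacZ. SHQ1, a chaperone of dyskerin, read 5.15 under both genes, 4.89 under mutant PIK3CA, 4.93 under Her2 and 5.24 under LacZ. Dyskerin (DKC1) was read only by a probe set shared with SNORA56, at 6.97 under both genes, 7.33 under mutant PIK3CA, 7.06 under Her2 and 7.30 under LacZ.

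Of 19 listed Cajal body genes, 17 were measured, 14 reached log2 3, and 0 differed by 2-fold in either direction from LacZ under any label. Of all named genes that reached log2 3, 14.1% were higher and 9.60% lower than LacZ under both genes. The shares were 5.89% and 4.19% under mutant PIK3CA, and 3.74% and 3.23% under Her2. COIL (coilin, the scaffold of the body) read 2.94 under both genes, 3.64 under mutant PIK3CA, 3.79 under Her2 and 3.75 under LacZ. WRAP53, which carries SCARNA and telomerase RNAs to the body, read 2.60 under both genes, 2.50 under mutant PIK3CA, 2.27 under Her2 and 2.02 under LacZ. Of 12 stand-alone pseudouridine synthases, PUS10 was at least 2-fold higher under both genes (3.21) and under Her2 (2.83) than under LacZ (1.46), and RPUSD1 was lower under both genes (4.77) than under LacZ (6.02). TERC, the telomerase RNA, is itself an H/ACA RNA although its symbol keeps it out of the 81. It read 5.81 under both genes, 5.61 under mutant PIK3CA, 4.36 under Her2 and 5.88 under LacZ, so it was also lowest under Her2, by a difference of -1.52. TERC is transcribed from its own promoter and has no host intron. TERT, the protein subunit of telomerase, stayed between 1.15 and 1.42. Of 21 genes of 3′ end maturation and intron release, 4 were 2-fold or more higher and 1 lower under both genes against LacZ. The counts were 0 and 1 under mutant PIK3CA, and 0 and 0 under Her2. All of these are near the shares over all named genes given above. The lower gene was EXOSC5 each time, at 6.87 under both genes, 7.56 under mutant PIK3CA, 7.95 under Her2 and 8.94 under LacZ. TOE1, a deadenylase that trims small RNA ends, read 4.25 under both genes, 3.67 under mutant PIK3CA, 2.95 under Her2 and 2.88 under LacZ, and EXOSC9, an exosome subunit, read 4.74, 3.64, 3.45 and 2.91 in that order.

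Another 47 probe sets carry a SNORA or SCARNA symbol together with other symbols, mostly host genes, and 38 reached log2 3. Under Her2 against LacZ 0 of the 38 were 2-fold or more higher and 2 lower, with a median of -0.24, and under mutant PIK3CA 6 were higher and 1 lower, with a median of 0.17. Of all named genes that reached log2 3, 3.74% were higher and 3.23% lower under Her2, to which 0 and 2 of 38 are near, and 5.89% and 4.19% under mutant PIK3CA. The probe set of SNORA48 and its host EIF4A1, a translation initiation factor, read 9.68 under both genes, 9.76 under mutant PIK3CA, 8.53 under Her2 and 9.53 under LacZ. SNORA73A, which acts in ribosomal RNA processing, was read only by probe sets shared with other symbols, and the one shared with RCC1 and SNHG3 read 5.50 under both genes, 5.86 under mutant PIK3CA, 5.26 under Her2 and 5.58 under LacZ. SNORA73B was not analysed here. In both of these probe sets the array labelled Her2 was the lowest. Over the 38 the array labelled Her2 was the lowest for 16 and the highest for 3, and the array labelled mutant PIK3CA was the highest for 21. Over all named genes that reached log2 3 these shares were 19.3%, 18.3% and 23.1%. Some of the 38 repeat a transcript, and those of SNORA59A and SNORA59B read the same on every array, so they are not separate RNAs. A probe set of RPS2, SNORA64 and RPS2P55 was among those with Her2 highest, at 10.50 under both genes, 10.45 under mutant PIK3CA, 10.80 under Her2 and 10.68 under LacZ.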

How the data were processed

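RNA of 4 MCF10A samples was measured on 1 Affymetrix whole-transcript array each. The deposited log2 values per probe set were made by the authors with the oligo package and its RMA method, as the submitters' processing notes name them. RMA corrects each array for background, makes the arrays' distributions alike and joins the probes of a set. No version and no probe set definition is given in the sources used here. RMA assumes that most probe sets do not differ, so a shift of all small RNAs shows relative to all genes. The log base follows from RMA and the range of the values (-0.77 to 12.35). Of 53617 probe sets, 23871 had 1 symbol in the platform annotation, with symbols brought up to date by gene identifier from RefSeq (GRCh38.p14). The number of arrays limits the precision, and no gene's level was set against another gene's.

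The members, the gene lists and the naming rule were chosen with earlier results of these data known. Values were named in full for the highest and lowest 10 differences of both genes against LacZ, 5 of each single gene against LacZ, 6 departures from additivity, every SCARNA that reached log2 3, and paralogue groups. Differences of at least 1 log2 unit were counted beside the same count over all named genes. Hosts are genes whose RefSeq span holds the member. The planned match of strand was not made because the table gives none, so a host may lie on the other strand. Sequences are from RefSeq. The counting was tested on simulated data. Alternatives were quantile normalization and cyclic loess (limma 3.58.1 in R 4.3.3), centring on box C/D RNAs, other levels and thresholds, and shared probe sets. Other steps used Python 3.11.15 with pandas 2.3.3.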

Additional observations from a re-analysis of the deposited data

Results flagged for a closer look

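SNORA23 went opposite ways where the Her2 label was added: the difference was -1.44 for Her2 against LacZ and 1.82 for both genes against mutant PIK3CA. SNORA50C did the same, with -1.58 and 1.36. These reversals are between single arrays, and the difference between the pairs was not tested.

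Some probe sets shared with other symbols, which the counts of members leave out, were at least 2-fold above LacZ. Under mutant PIK3CA these were the probe sets of SNORA11 and MAGED2 (2.85), SNORA71B and SNHG17 (2.46), SNORA10, SNORA64 and RPS2 (2.24), SNORD100 and SNORA33 (2.10), SNORA9 and SNHG15 (1.34), and SNORA2C and MIR1291 (1.01). Under both genes it was that of SNORA11 and MAGED2 (1.25). At least 2-fold below LacZ was the probe set of SCARNA9 and SCARNA9L under mutant PIK3CA (-1.35). Under Her2 those of SNORA84 and MIR3651 (-1.06) and of SNORD100 and SNORA33 (-1.02) were lower by as much. Which of the transcripts under a shared probe set was higher or lower cannot be told apart.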

How the results depend on the processing

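Each count and median of the 48 members was recomputed under other settings. Quantile normalization, cyclic loess, the planned centring on all box C/D RNAs, averaging a gene's probe sets and 1 member per host gene (43 members, added after seeing the data) left every count within 1.5 times and every median within 0.1. No named difference of at least 2-fold changed sign under the planned settings or the mean of probe sets. Most SNORD genes lie at background, so 2 centrings on the detected SNORD genes were added after seeing the data. They move the median of all named genes against LacZ to -0.24 under both genes, -0.67 under mutant PIK3CA and 0.55 under Her2 (median deviation) or to -0.30, -1.06 and 0.23 (median level).

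Centred on the median deviation, both genes against LacZ had 5 higher and a median of -0.25, mutant PIK3CA 4 higher, 13 lower and -0.62, and Her2 3 higher, 3 lower and -0.12. Both genes against mutant PIK3CA had 14 higher, 3 lower and 0.29, both genes against Her2 6, 10 and -0.0744, and additivity 3 below and a median of 0.23. Centred on the median level, the values were 5 higher and -0.28 for both genes against LacZ, 2 higher, 25 lower and -1.002 for mutant PIK3CA, and 2 higher, 7 lower and -0.43 for Her2. They were 17 higher, 2 lower and 0.62 for both genes against mutant PIK3CA, 9, 8 and 0.19 for both genes against Her2, and 22 above and 0.89 for additivity. Directions that turned follow from the shift of all genes that the centring itself makes.

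Without a filter (81 members) the medians were 0.0236 for mutant PIK3CA and -0.29 for Her2 against LacZ, 0.0037 and 0.38 for both genes against mutant PIK3CA and against Her2, and 0.26 for additivity, with 2 higher under Her2 and 3 below additivity. A level of 2 gave 2 higher and a median of -0.55 under Her2, medians of -0.0724 and 0.59 for both genes against mutant PIK3CA and against Her2, and 3 below additivity. A level of 5 gave 5 higher and 3 lower for both genes against LacZ, a median of 0.33 for mutant PIK3CA, 7 lower for Her2, 3 higher and 3 lower for both genes against mutant PIK3CA, 8 higher for both genes against Her2 and 4 above additivity. A mean of at least 3 gave 9 higher for both genes against Her2. Fewer or more members enter under these levels. With shared probe sets admitted the medians were -0.58 for Her2 against LacZ, 0.53 for both genes against Her2 and 0.16 for additivity, with 12 lower for both genes against mutant PIK3CA and 5 below additivity. At 1.5-fold, which counts more by construction, there were 11 lower for both genes against LacZ, 27 lower for Her2, 12 higher and 17 lower for both genes against mutant PIK3CA, 28 higher and 4 lower for both genes against Her2, and 6 below additivity. The correlation with hosts under both genes was 0.28 over the 19 members whose hosts reached log2 5. No paired analysis was possible because each group is 1 array.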
